A study of Homo sapiens with 6 samples.

Results

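The DDX and DHX genes encode RNA helicases of the DEAD-box and DEAH-box families. Members were the genes whose symbol starts with DDX or DHX and a number, without DDX58 and DDX60, among probe sets that name a single gene, which gave 52 of 18132 measured genes, the pseudogene DDX11L2 among them. Where a gene had several probe sets, the brightest on average across all 6 arrays was used. That mean weighs both groups alike, so no SAHA minus DMSO difference entered the choice, and it is not a result. Expression was measured on 6 Affymetrix arrays in MDA-MB-231 cells, a human triple-negative breast cancer line with mesenchymal features, grown in DMEM/F12 medium with serum. Cells received 5 µM SAHA for 8 h (3 arrays) or the solvent DMSO for the same time (3 arrays). SAHA, or vorinostat, inhibits zinc-dependent histone deacetylases, and the comparison asks which transcripts differ after deacetylase inhibition. Whether the replicates came from separate cultures is not stated, and the p-values cover only the spread between these samples, which may be technical. This is a single line, and bulk arrays cannot tell fewer transcripts per cell from fewer cells that express a gene.

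RNA helicases use ATP to pull RNA strands apart or to strip proteins off RNA. DEAD-box members mostly open short duplexes or clamp onto RNA, while DEAH-box members move along a strand and are often switched on by partner proteins with a glycine-rich G-patch. Between them they drive the steps of the spliceosome, the assembly of ribosomes in the nucleolus, export of mRNA through the nuclear pore, the start of translation and the storage or decay of mRNA.

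Most helicase transcripts were lower with SAHA. In limma's test, with Benjamini-Hochberg adjustment over all 18132 genes and a threshold of 0.05, 32 of the 52 members fell, 7 rose and 13 did not pass. Over all genes 23.8% were lower, 24.6% were higher and 48.3% passed in either direction. Level matters for this count, because bright probe sets pass more often. Among genes with a mean log2 value of at least 7, 75.1% passed, 39.5% lower and 35.7% higher, and among the 41 members at that level 29 fell and 7 rose. The members' median log2 fold change was -0.36, beside -0.01 for all genes. The groups did not overlap in 42 members, against 55.5% of all genes. Of these 42, 39 were among the 41 members with a mean log2 value of at least 7. The share of all genes at that level is not given here. Falls of at least 2-fold were seen in 4 members (4.47% of all genes), DDX6, DHX35, DDX54 and DHX33, whereas no member rose by 2-fold (5.93% of all genes) and the largest rise was 1.64-fold, in DHX29. By name, 23 of 36 DDX genes fell and 3 rose, and 9 of 16 DHX genes fell and 4 rose.

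**Figure D1:**
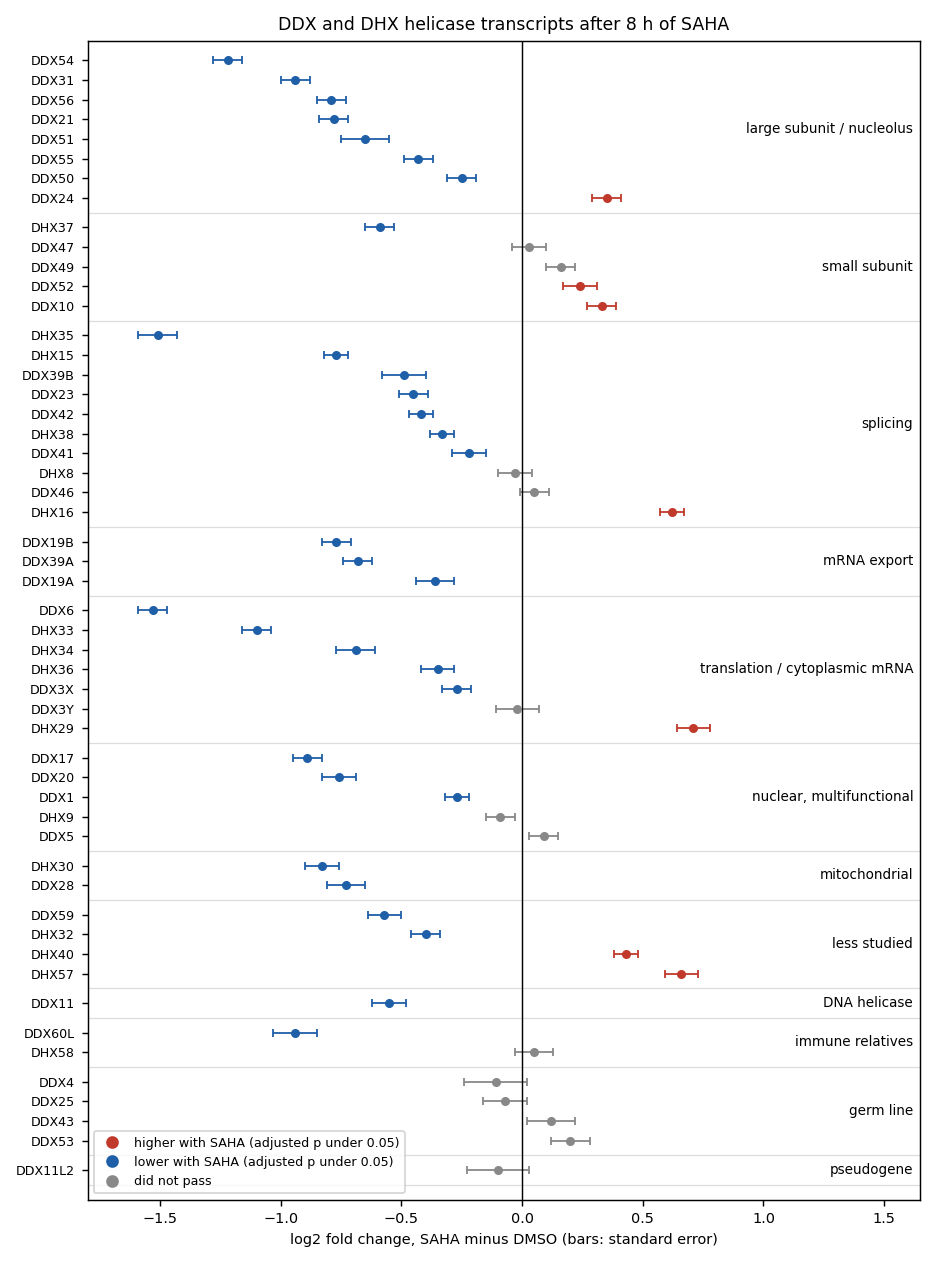
Log2 fold change of each of the 52 helicases, SAHA minus DMSO, on the horizontal axis with limma's standard error as bars (3 arrays per group), grouped by the role of the protein. Blue members (32) were lower and red members (7) higher at an adjusted p under 0.05, and the 13 grey ones did not pass.

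The deposited values were made with RMA, which gives all arrays nearly the same distribution, so a shift of most transcripts in 1 direction cannot be read from them. Centred on the poly-A spike-ins, which moved the median of all genes by 0.16, 22 members were lower and 9 higher, so that lower members made up 71% of those that passed, against 82.1% as deposited. On that scale 69.5% of all genes that passed were higher, against 50.9% as deposited. Centring on ribosomal protein genes moved the median by 0.10 and gave 29 lower and 10 higher members, with 62.7% of all calls higher. The members' median was below 0 on each of these scales, at -0.19 and -0.25. Arrays of a group were alike, with Pearson's r across probe sets of 0.998 among SAHA arrays and 0.997 among DMSO arrays, against 0.968 to 0.97 between groups. The ACTB 3' minus 5' difference, a measure of transcript integrity, was 0.61 ± 0.06 in SAHA and 0.89 ± 0.16 in DMSO arrays (SD, n = 3). An exact two-sided permutation test gave p = 0.1, which is the lowest value that 3 against 3 arrays allow, and 0.2 after adjustment over 8 control measures. With that difference as a covariate 26 members were lower and 6 higher. Of 6 markers of mesenchymal and basal-type lines, 4 were lower with SAHA (EGFR, CAV1, CD44 and MSN), FN1 was higher and VIM did not pass, and their mean log2 value per array was 11.09 to 11.10 in SAHA and 11.49 to 11.59 in DMSO arrays. Of 9 luminal markers 5 were lower and 4 did not pass, and their mean per array was 6.93 to 7.0 in SAHA and 7.33 to 7.40 in DMSO arrays. The luminal levels were mixed, from PGR at 3.38 in SAHA and 3.29 in DMSO arrays to KRT18 at 11.52 in SAHA and 12.07 in DMSO arrays. The part of these marker changes in the helicase result was not tested.

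DDX6 and DHX35 had the largest falls. DDX6 is the DEAD-box protein of processing bodies, where it links deadenylation by the CCR4-NOT complex to decapping and holds mRNAs untranslated. Its log2 values were 8.49, 8.41 and 8.56 on the SAHA arrays, against 9.97, 10.04 and 10.05 on the DMSO arrays. The groups were far apart relative to their spread, and the log2 fold change was -1.53 ± 0.06 (standard error; 2.89-fold lower, limma's adjusted p = 8.33e-07). Its other probe sets, much dimmer, both gave -1.32. DHX35 has been found in spliceosomes and its step there is poorly known. It read 7.77, 7.55 and 7.58 with SAHA, against 9.07, 9.23 and 9.14 with DMSO, a change of -1.51 ± 0.08 (2.85-fold lower, adjusted p = 2.54e-06 in limma). All 4 probe sets of DHX35 fell, by -1.51 to -1.10.

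The other falls of at least 2-fold were DDX54 and DHX33. DDX54, a counterpart of yeast Dbp10 in large subunit assembly that also represses nuclear receptors, read 8.44, 8.32 and 8.33 with SAHA, against 9.58, 9.56 and 9.60 with DMSO. The difference was -1.22 ± 0.06 (limma's adjusted p = 1.75e-06) in the brightest probe set, while the other 3 fell by less, at -0.77, -0.73 and -0.57. DHX33, counted here with translation, has been linked both to translation initiation and to transcription of ribosomal DNA in the nucleolus. It read 8.94, 8.88 and 8.97 with SAHA and 10.01, 10.10 and 9.96 with DMSO. Its change was -1.10 ± 0.06 (limma's adjusted p = 3.69e-06), and its 4 probe sets lay between -1.18 and -0.78.

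**Figure D2:**
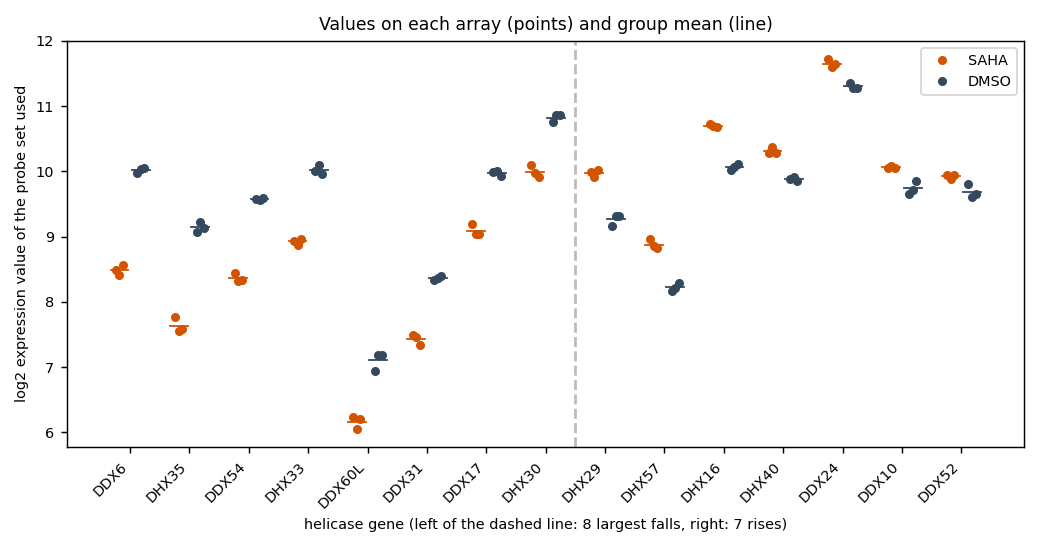
Log2 expression value on each array (points) with group means (lines) for the 8 largest falls and the 7 rises among the helicases, SAHA left of DMSO for each gene. The SAHA and DMSO points do not overlap for any of the 15 genes, and the gap is widest for DDX6 and DHX35. The genes were chosen by their calls and the size of their change, so this separation largely follows from the choice. Among all genes 55.5% do not overlap.

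Promoter windows are shown for the members with the largest changes that have an entry in RefSeq's table (GRCh38.p14): 3 that fell by at least 2-fold and the 3 largest rises. Each line gives the 150 bases before the annotated start, 5′ to 3′ on the gene's strand, and for DDX6 the first of 3 listed starts. Capitals mark letters that match a searched motif on either strand.
DDX6 (chr11:118791745-118791894, - strand): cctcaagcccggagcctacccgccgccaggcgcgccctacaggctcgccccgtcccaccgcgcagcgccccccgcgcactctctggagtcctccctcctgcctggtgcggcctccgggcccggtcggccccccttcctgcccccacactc
DHX35 (chr20:38962194-38962343, + strand): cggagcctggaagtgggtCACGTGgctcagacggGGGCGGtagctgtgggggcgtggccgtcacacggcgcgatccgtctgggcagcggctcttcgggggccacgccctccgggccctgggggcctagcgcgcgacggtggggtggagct
DDX54 (chr12:113185479-113185628, - strand): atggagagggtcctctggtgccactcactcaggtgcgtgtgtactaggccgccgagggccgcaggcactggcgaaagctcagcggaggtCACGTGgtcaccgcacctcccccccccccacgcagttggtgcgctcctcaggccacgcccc
DHX29 (chr5:55307695-55307844, - strand): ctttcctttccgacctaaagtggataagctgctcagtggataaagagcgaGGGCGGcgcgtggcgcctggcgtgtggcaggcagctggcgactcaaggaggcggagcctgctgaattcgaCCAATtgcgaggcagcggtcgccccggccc
DHX57 (chr2:38875935-38876084, - strand): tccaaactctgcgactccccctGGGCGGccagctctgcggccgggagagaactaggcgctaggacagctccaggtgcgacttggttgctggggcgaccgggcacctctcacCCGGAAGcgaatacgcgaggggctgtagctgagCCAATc
DHX16 (chr6:30673007-30673156, - strand): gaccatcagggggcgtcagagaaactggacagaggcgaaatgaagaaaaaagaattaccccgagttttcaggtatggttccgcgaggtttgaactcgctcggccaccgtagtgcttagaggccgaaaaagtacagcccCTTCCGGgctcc
The motifs were an E-box (CACGTG, bound by MYC and USF proteins), a CCAAT box (CCAAT), a GC box (GGGCGG), an ETS core (CCGGAAG), an NRF1 half-site (TGCGCA) and a YY1 core (AAGATGGC). DHX35 and DDX54 hold an E-box, 132 and 61 bases before the start. A GC box lies in DHX35, 116 bases before the start, and in DHX29 and DHX57. DHX29 and DHX57 also hold a CCAAT box, DHX57 and DHX16 an ETS core, and the DDX6 window has no match to these letters.

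Over the 250 bases before the first listed start, 47 of the 52 members had a window, 31 of them of genes that fell and 6 of genes that rose. The ETS core was found in 10 of the 31 and in 2 of the 6, and in 16 of all 47 (34%). Among 7315 genes with a mean log2 value of at least 7 its share was 18%, and among all 27305 windows 8.82%. An E-box was present in 5 of the 31 and 1 of the 6 (16.1% and 16.7%), against 9.6% of the 7315 and 6.49% of all windows. CCAAT was present in 14 of the 31 and 4 of the 6, against 36.4% and 33% of those wider sets. The GC box was in 15 of the 31 and 5 of the 6, against 70.4% and 42.3%. The NRF1 half-site was in 5 of the 31 and 1 of the 6, against 12.8% and 7.05%, and the YY1 letters were in none of the 47, against 2.06% and 1.37%. With only 6 windows of genes that rose, shares of the directions were not compared, and these matches are descriptions of sequence, not of binding.

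Of 8 helicases of the large ribosomal subunit and the nucleolus, 7 fell and 1 rose, with changes of -1.22 to 0.35 and a median of -0.72. Beside DDX54, DDX31 read 7.49, 7.46 and 7.34 with SAHA, against 8.34, 8.37 and 8.40 with DMSO (-0.94 ± 0.06, limma's adjusted p = 8.07e-06). Of its 7 probe sets 5 fell, by -0.99 to -0.84, and the 2 that did not pass were dim. DDX21, which couples RNA polymerase I and II transcription to rRNA processing, is among the brightest members. It was at 12.00 ± 0.02 in SAHA and 12.78 ± 0.06 in DMSO arrays (SD, n = 3), a log2 fold change of -0.78 ± 0.06 (limma's adjusted p = 1.32e-05). The other probe sets of DDX21, both dimmer, fell by more, at -0.95 and -1.07 (2.1-fold lower for the last). DDX50, its close relative, changed by only -0.25 ± 0.06 (limma's adjusted p = 0.00677), and the 95% intervals of the pair, -0.91 to -0.65 and -0.38 to -0.12, do not meet. DDX56 (-0.79), DDX51 (-0.65) and DDX55 (-0.43), which act at steps of large subunit maturation, fell as well. DDX24, a counterpart of yeast Mak5, went the other way. It read 11.72, 11.60 and 11.64 with SAHA, against 11.35, 11.28 and 11.28 with DMSO (0.35 ± 0.06, limma's adjusted p = 0.00123), and all 5 of its probe sets rose, by 0.25 to 0.36.

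Of 5 small subunit helicases, 2 rose, 1 fell and 2 did not pass. DDX10, a counterpart of yeast Dbp4 that acts on the U3 particle, read 10.05, 10.09 and 10.06 with SAHA and 9.66, 9.71 and 9.85 with DMSO (0.33 ± 0.06, limma's adjusted p = 0.00345). DDX52, a counterpart of yeast Rok1, was at 9.94, 9.89 and 9.95 with SAHA, against 9.80, 9.61 and 9.65 with DMSO (0.24 ± 0.07, limma's adjusted p = 0.0172). That rise rests on its brightest probe set, since the next gave -0.01 ± 0.07 and the dimmest 0.19 ± 0.09. Leaving out SAHA replicate 1 or 3, or DMSO replicate 2 or 3, also left DDX52 short of the test's threshold. DHX37, which releases U3 from the small subunit precursor, fell by 0.59 on the log2 scale (7.58, 7.64 and 7.55 with SAHA, against 8.10, 8.18 and 8.27 with DMSO). DDX49 lay just outside the threshold, at 9.91, 9.94 and 9.80 with SAHA and 9.74, 9.67 and 9.76 with DMSO. Its groups did not overlap, with a change of 0.16 ± 0.06 (limma's adjusted p = 0.0648), and it passed as higher in 8 of 21 alternatives.

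DDX47 shows what the choice of probe set can do. It is a small subunit processing factor, and its only probe set with no second gene read 2.69, 2.78 and 2.78 with SAHA and 2.79, 2.77 and 2.59 with DMSO, close to 2.33, the lowest value in the table. Another probe set, annotated to DDX47 and its neighbour APOLD1, read 10.55, 10.49 and 10.44 with SAHA, against 11.22, 11.28 and 11.25 with DMSO. It fell by 0.76 (standard error 0.06; limma's adjusted p = 2.24e-05 over all probe sets). The dim value is therefore given here as not passing, and which gene the bright signal comes from was not tested.

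Splicing helicases were mostly lower, with 7 of 10 lower, 1 higher and a median of -0.38. DHX15, the counterpart of yeast Prp43 that takes spent spliceosomes apart, read 11.08, 11.05 and 11.02 with SAHA, against 11.82, 11.80 and 11.83 with DMSO. Its spread was among the smallest of the bright members, and the change was -0.77 ± 0.05 (limma's adjusted p = 8.76e-06). DDX23, which displaces U1 from the 5' splice site, changed by -0.45 ± 0.06, DDX42, a partner of the U2 particle, by -0.42 ± 0.05 and DHX38, which remodels the spliceosome for the second step, by -0.33 ± 0.05. All probe sets of these 3 genes fell. DDX41, also studied as a DNA sensor and a leukaemia gene, was the weakest fall, at 8.91, 8.75 and 8.89 with SAHA and 9.0, 9.08 and 9.13 with DMSO (-0.22 ± 0.07, limma's adjusted p = 0.0307). Without SAHA replicate 2 or 3, or DMSO replicate 2 or 3, or with the replicate number as a block, that fall did not pass.

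DHX16 rose while most other spliceosome helicases fell. It is the counterpart of yeast Prp2, which activates the spliceosome for the first step. DHX16 read 10.72, 10.69 and 10.68 with SAHA, against 10.02, 10.07 and 10.12 with DMSO (0.62 ± 0.05, limma's adjusted p = 3.57e-05), and its dimmer probe set rose by 0.40. DHX8, which frees the spliced mRNA, and DDX46, which acts on U2 at the branch site, did not pass. Their changes of -0.03 (95% interval -0.20 to 0.15) and 0.05 (-0.09 to 0.19) leave no room for a change of the size seen in DHX15.

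The 3 members listed under export, DDX39A, DDX19A and DDX19B, all fell, although the DDX19 pair is hard to separate on this array. DDX39A, a nuclear export helicase near-identical in design to DDX39B, was at 10.79 ± 0.07 in SAHA and 11.47 ± 0.03 in DMSO arrays (SD, n = 3; -0.68 ± 0.06, limma's adjusted p = 3.89e-05). DDX39B (UAP56), which loads the TREX complex on mRNA, is counted here with the splicing helicases. It fell by 0.49 in its only probe set of its own, a rather dim one. The 7 brighter probe sets that also name the readthrough transcript ATP6V1G2-DDX39B fell by 0.46 to 0.57, so DDX39B gave nearly the same value throughout. DDX19A and DDX19B release mRNA on the outer face of the nuclear pore. DDX19B changed by -0.77 ± 0.06 in a dim probe set (5.44 ± 0.07 with SAHA and 6.22 ± 0.05 with DMSO). DDX19A changed by -0.36 ± 0.08 in its brighter probe set, which is of a type shared by similar transcripts, and by -0.09 ± 0.06 in the other. The brightest probe set of the pair, annotated to both, read 9.83, 9.77 and 9.78 with SAHA and 9.74, 9.71 and 9.68 with DMSO (0.08 ± 0.06, limma's adjusted p = 0.309 over all probe sets).

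**Figure D3:**
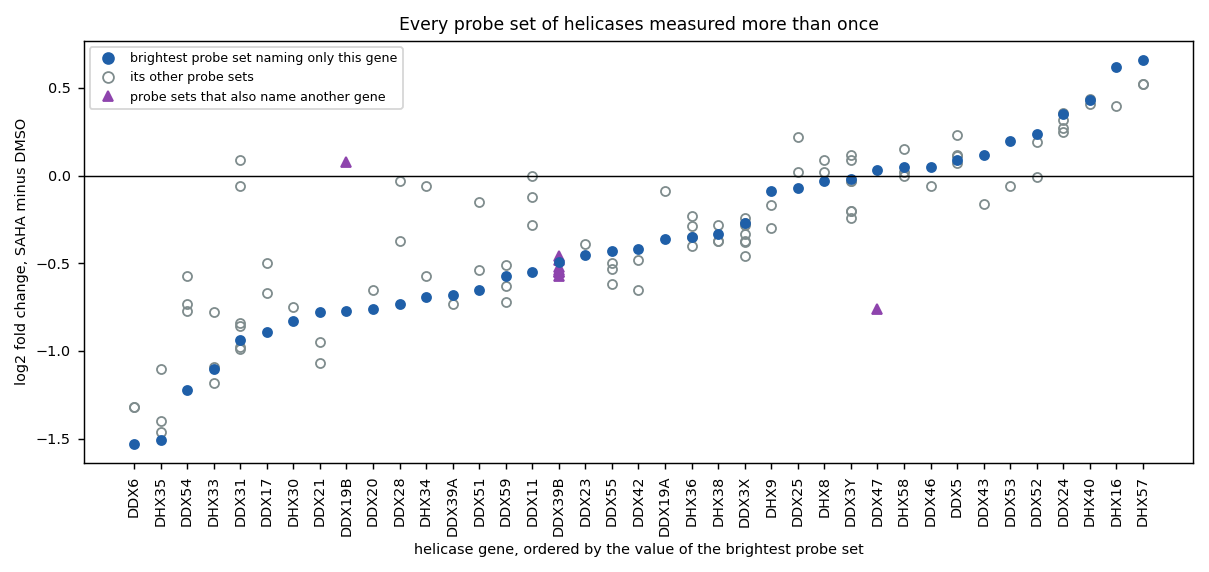
Log2 fold change, SAHA minus DMSO, of every probe set of the helicases with several probe sets and of DDX19B, DDX39B and DDX47, which also share probe sets with another gene. Filled circles are the values used and triangles the shared probe sets. DDX6, DHX35, DDX24 and DDX3X give the same direction throughout, while DDX47 and DDX19B change sign with the shared probe set.

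Across the members 36 had several probe sets, and in 19 of these every probe set passed in the same direction. The matching share over all genes with several probe sets is not given here, so that count describes the members only. Of 143 probe sets that name a single member, 80 fell and 17 rose, where 24.1% and 22.2% of all probe sets did. Those shares cover probe sets of every level, and no share matched for level is given here. Some members that fell were uneven across their probe sets, such as DDX28, with -0.73 ± 0.08, -0.37 ± 0.08 and -0.03 ± 0.07 in its 3 probe sets. DDX11 (-0.55 ± 0.07), a DNA helicase of sister chromatid cohesion, and DHX34 (-0.69 ± 0.08), a factor of nonsense-mediated decay, also had probe sets that did not pass. For DDX11 these were 3 of its 4, at -0.28, -0.12 and 0.00, and its call was lost with the mean of its probe sets, with the second brightest, and without the probe set types shared by similar transcripts. For DHX34 it was 1 of 3, at -0.06 ± 0.14. Other probe sets of DDX11 are shared with the pseudogene DDX12P and gave -0.44, which passed as lower, and -0.22, which did not pass. Those shared with another locus but not with DDX12P gave -0.33 and -0.42, and both passed as lower.

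Of 7 helicases listed under translation and cytoplasmic mRNA, 5 fell (DHX33 among them) and 1 rose. DHX29 rose most of all members. It sits on the small ribosomal subunit and helps it scan through structured mRNA leaders. DHX29 read 9.99, 9.91 and 10.02 with SAHA, against 9.16, 9.31 and 9.32 with DMSO (0.71 ± 0.07, 1.64-fold, limma's adjusted p = 5.55e-05). DHX36, which unwinds G-quadruplexes, changed by -0.35 ± 0.07, and 4 of its 5 probe sets passed as lower. DDX3X, a translation factor for structured mRNAs and a tumour gene in medulloblastoma, changed by -0.27 ± 0.06 (limma's adjusted p = 0.00557), in the same direction in all 8 probe sets (-0.46 to -0.24). This small fall did not pass after centring on ribosomal protein genes or poly-A spike-ins. DDX3Y, its counterpart on the Y chromosome, was dim at 5.31 ± 0.16 with SAHA and 5.33 ± 0.05 with DMSO, and did not pass. The probe set used is of a type shared by similar transcripts. The other DDX3Y probe sets were dimmer, with means over all arrays of 2.68 to 4.77, so whether DDX3Y itself was detected is unclear.

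Among nuclear helicases with several functions, the paralogs DDX5 and DDX17 did not move alike. Both serve the Microprocessor, alternative splicing and transcription by nuclear receptors. DDX17 read 9.19, 9.04 and 9.04 with SAHA, against 9.99, 10.01 and 9.93 with DMSO (-0.89 ± 0.06, limma's adjusted p = 1.35e-05), and its 3 probe sets fell by 0.50 to 0.89. DDX5 read 13.12, 13.14 and 13.16 with SAHA, against 13.06, 12.97 and 13.10 with DMSO (0.09 ± 0.06, limma's adjusted p = 0.231). The 95% intervals were -1.03 to -0.74 for DDX17 and -0.04 to 0.23 for DDX5. DDX5 was the brightest of the members described here, and its dimmest probe set gave 0.23 ± 0.07 and passed as higher, while the other 4 did not pass. DDX20 (Gemin3), of the SMN complex that builds spliceosomal particles, changed by -0.76 ± 0.07 and DDX1, of the tRNA ligase complex, by -0.27 ± 0.05. DHX9, a helicase of transcription and of Alu and double-stranded RNA, did not pass at -0.09 ± 0.06, with SAHA values of 10.49 to 10.52 and DMSO values of 10.52 to 10.63. Its dimmest probe set passed as lower, at -0.30 (limma's adjusted p = 0.0212 over all probe sets), and DHX9 passed as lower with the mean of its probe sets.

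Both mitochondrial helicases fell. DHX30, which is needed for mitochondrial ribosome assembly, read 10.10, 9.97 and 9.92 with SAHA, against 10.75, 10.86 and 10.86 with DMSO (-0.83 ± 0.07, limma's adjusted p = 2.82e-05), and its second probe set gave -0.75. DDX28, of the mitochondrial large subunit, is described above.

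The less studied members split evenly. DHX57 read 8.97, 8.85 and 8.82 with SAHA, against 8.16, 8.22 and 8.29 with DMSO (0.66 ± 0.07, limma's adjusted p = 8.34e-05). DHX40 read 10.29, 10.37 and 10.28 with SAHA, against 9.88, 9.91 and 9.85 with DMSO (0.43 ± 0.05, limma's adjusted p = 0.000269). Every probe set of both genes rose, although 2 of the 3 for DHX57 hold identical values and count as 1 reading. DDX59 (-0.57 ± 0.07, all 4 probe sets lower) and DHX32 (-0.40 ± 0.06) fell.

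DDX60L, a relative of the interferon-induced DDX60, read 6.23, 6.06 and 6.20 with SAHA, against 6.94, 7.18 and 7.19 with DMSO (-0.94 ± 0.09, limma's adjusted p = 4.77e-05). DHX58 (LGP2), a regulator of the RNA sensors RIG-I and MDA5, was dim and did not pass, at 4.50 ± 0.14 with SAHA and 4.45 ± 0.07 with DMSO (SD, n = 3). The 4 germ line members DDX4, DDX25, DDX43 and DDX53 were all dim, with group means of 3.39 to 4.12 with SAHA and 3.51 to 4.19 with DMSO. In limma's test 0 of the 4 passed, and 1, DDX53, had an unadjusted p under 0.05. DDX53 was the nearest to the threshold, at 3.59, 3.83 and 3.75 with SAHA and 3.42, 3.60 and 3.53 with DMSO (0.20 ± 0.08, limma's adjusted p = 0.0741). The pseudogene DDX11L2 was at -0.10 ± 0.13.

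Proteins that work with these helicases, and helicases with other symbols, were examined in 9 lists holding 98 measured genes, together called partner genes here. Of them 53 were lower, 16 were higher and 29 did not pass, with a median of -0.25. Since 91 of them had a mean log2 value of at least 7, the shares to set beside these counts are 39.5% lower and 35.7% higher among all genes at that level, where the 91 had 53 lower and 13 higher. Genes of the TREX complex and mRNA export were lower in 11 of 13 and higher in 1 (median -0.54). NUP42, which places GLE1 at the pore, changed by -0.77 ± 0.06 (limma's adjusted p = 1.45e-05), the export adaptor ALYREF by -0.63 ± 0.05 and the export receptor subunit NXT1 by -0.54 ± 0.06. THOC3 went the other way, at 0.33 ± 0.10 (limma's adjusted p = 0.0254). For DDX6, 9 of 15 genes of its complexes and of decapping were lower and 2 higher (median -0.29). The decapping activator DCP1A read 9.21, 9.10 and 9.11 with SAHA and 10.00, 9.97 and 9.95 with DMSO (-0.83 ± 0.06), ATXN2L changed by -0.75 ± 0.05 and LSM14A by -0.68 ± 0.06. The decapping enzyme DCP2 rose by 0.37 ± 0.06 (limma's adjusted p = 0.00184).

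Genes listed for a G-patch, the part found in activators of DEAH-box helicases, moved both ways. Of these 8 of 21 were lower and 4 higher (median -0.05), a share of lower genes near that 39.5%. Whether each listed protein activates a helicase was not tested. GPATCH4, a nucleolar partner of DHX15, read 8.74, 8.85 and 8.64 with SAHA, against 10.29, 10.34 and 10.39 with DMSO (-1.60 ± 0.07, limma's adjusted p = 1.23e-06). RBM5, a splicing regulator, changed by -0.86 ± 0.06 and GPANK1 by -0.77 ± 0.05. GPATCH11 rose, at 8.82, 8.64 and 8.71 with SAHA and 7.38, 7.63 and 7.61 with DMSO (1.18 ± 0.09, limma's adjusted p = 1.35e-05).

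Helicases with other symbols were lower in 8 of 17 and higher in 3 (median -0.13). ZNFX1, an antiviral helicase, changed by -0.88 ± 0.05 and UPF1, the helicase of nonsense-mediated decay, by -0.56 ± 0.06. EIF4A3, the DEAD-box core of the exon junction complex, rose, at 12.75, 12.73 and 12.70 with SAHA and 12.11, 12.16 and 12.16 with DMSO (0.58 ± 0.05, limma's adjusted p = 3.84e-05). Of the eIF4A and exon junction cofactors 5 of 7 were lower, among them EIF4B (-1.10 ± 0.06), MAGOHB (-0.64 ± 0.08) and CASC3 (-0.55 ± 0.07).

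MIF4G and MA3 proteins, which hold DEAD-box helicases in an open or closed form, were lower in 6 of 11 and higher in 2. CWC22 changed by -1.04 ± 0.07, UPF2 by -0.69 ± 0.05, the translation scaffold EIF4G1 by -0.69 ± 0.06 and CTIF by 0.35 ± 0.08. In the SMN complex 4 of 7 were lower and 2 higher. GEMIN6 changed by -1.19 ± 0.06 and GEMIN4, which binds DDX20, by -0.88 ± 0.05, while GEMIN8 was higher in a dim probe set (0.78 ± 0.08). Both Microprocessor genes fell, DGCR8 by 0.90 and DROSHA by 0.53. The tRNA ligase complex of DDX1 differed in its counts, with 2 of 6 higher, C2orf49 (0.34 ± 0.07) and the ligase RTCB (0.20 ± 0.05), and 4 not passing, ZBTB8OS at -0.09 ± 0.07 among them.

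**Figure D4:**
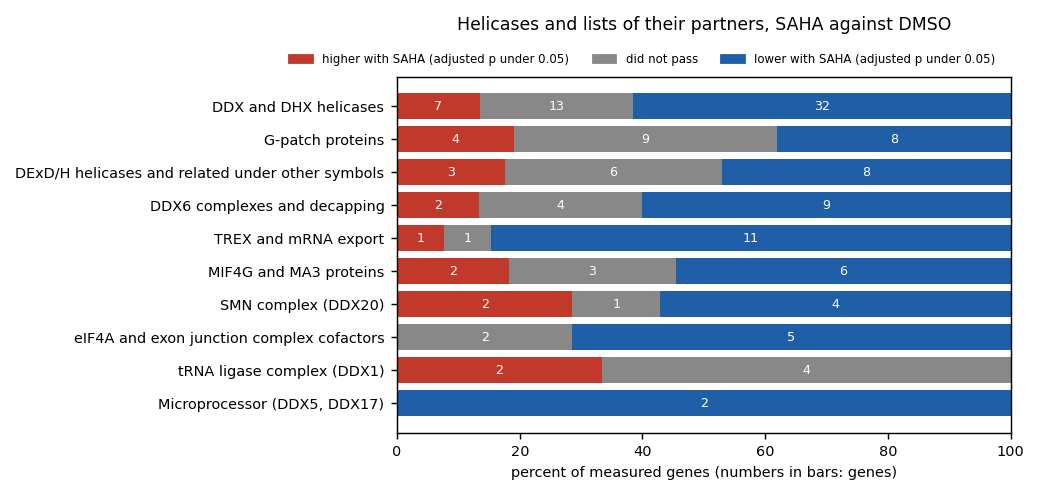
Share of measured genes higher (red, left), not passing (grey) and lower (blue, right) with SAHA at an adjusted p under 0.05, with gene numbers in the bars. Bars are for the 52 helicases and for 9 lists of their partners and of helicases with other symbols. The helicase bar holds 7, 13 and 32 genes, and the export list has 11 of 13 lower.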

How the data were processed

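Total RNA was labelled with biotin by a 3' in vitro transcription kit and hybridized to Affymetrix arrays, per the labels' protocols. The authors deposited 1 log2 value for each probe set and array. The submitters' processing notes name RMA, and its version is not given in the sources used here. After sorting, the arrays' values were within 0.0936 of their mean at each rank. Of 49395 probe sets, 102 were controls, 44988 named 1 gene, 1832 several and 2473 none, by the platform annotation. No genome build for the probes is given in the sources used here, so no probe positions are printed. Having only 3 arrays in each group limits precision.

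SAHA minus DMSO was tested with limma 3.58.1 in R 4.3.3 (lmFit and eBayes, two-sided, no covariate, no filter) on 18132 genes, with Benjamini-Hochberg adjustment at 0.05. Values after ± are standard errors for changes and SD where stated. Further probe sets were tested in the same way, with adjustment over all 49293 that are not controls. Promoters came from RefSeq, GRCh38.p14, and 47 of 52 members matched. Members, role lists and partner lists were chosen with earlier results of these data known, and the motifs after the changes had been seen. Values on every array are given for the 8 largest falls, the 7 rises and the members nearest the threshold, and partner lists are named by their 3 smallest p-values and the strongest called gene against the list's direction. Further genes shown with array values, namely DHX15, DHX37, DDX5, DDX47 and some partners, were chosen after their values were seen. Alternatives covered the choice of probe set, filters, scaling, covariates, moderation and each array left out. The test was checked on simulated data. Figures were drawn with matplotlib 3.10.9.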

Additional observations from a re-analysis of the deposited data

How the results depend on the processing

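Of the 39 helicases that passed, 21 kept their call in every alternative run for them. Among these, DDX56, DDX60L, DHX15, DHX29 and DHX37 have only 1 probe set, so another choice of probe set could not alter their values. The share of all genes that kept their call is not given here. Leaving out each array gave 31 to 32 lower and 6 to 7 higher helicases, 3952 to 4154 lower and 4115 to 4332 higher genes, and 50 to 52 lower and 12 to 14 higher partner genes. With the replicate number as a block, 31 helicases were lower and 8 higher, and DDX41 was the only helicase call lost. Same-numbered arrays did not deviate together (correlations of -0.13, -0.07 and -0.04). These values cannot show whether such arrays shared a culture, a day or a batch. Tested against a 1.2-fold change, a stricter question by construction, 4 helicases were higher and 23 lower, with 2759 genes higher and 2531 lower, and 4 partner genes higher and 35 lower. After poly-A spike-in centring 2556 genes and 35 partner genes were lower, and 10 helicase calls were lost, DDX1, DDX19A, DDX3X, DDX41, DDX42, DDX50, DDX55, DHX32, DHX36 and DHX38. With the ACTB difference as a covariate 7 partner genes were higher. That setting also lost 8 helicase calls, DDX10, DDX19A, DDX39B, DDX3X, DDX41, DDX50, DHX32 and DHX36. With the second brightest probe set 28 helicases were lower and DDX52 was at -0.01. Counting DDX58 and DDX60 gave 34 lower. With shared probe sets, an alternative chosen after seeing the data, DDX47 was at -0.76 and DDX19B at 0.08, and the counts stayed at 32 and 7. The cause of these changes was not tested. Dim probe sets, as for the germ line helicases, limit what can be seen, since values near the floor understate a change.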

Other observations

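DDX60 and RIG-I (formerly DDX58), the interferon-induced helicases outside the member rule, were also lower with SAHA. DDX60 read 5.17, 4.83 and 5.04 with SAHA, against 5.40, 6.11 and 6.03 with DMSO, in its single, dim probe set (-0.83 ± 0.19, limma's adjusted p = 0.00649 over all probe sets). The 3 probe sets of RIGI, as the annotation now names the gene, gave -0.56 ± 0.06, -0.33 ± 0.11 and -0.17 ± 0.10, and the last did not pass (limma's adjusted p = 0.22 over all probe sets).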
